A study of Anopheles gambiae with 5 samples.

Results

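The pericentromeric segments of the Anopheles gambiae chromosomes are the stretches next to the centromeric ends of the 5 chromosome arms, and they were chosen by position alone. In the AgamP4 assembly they run from base 1 to 2431617 of 2L, 58984778 to 61545105 of 2R, 1 to 1815119 of 3L, 52161877 to 53200684 of 3R and 20009764 to 24393108 of X. They sum to 12.2 Mb, 5.31% of the arms, and take 4.93% of 2L, 4.16% of 2R, 4.33% of 3L, 1.95% of 3R and 18.0% of X. A peak, gene or locus was a member when it lay wholly inside a segment. The members are 76 of the 6556 H3K27ac peaks on the 5 arms, 143 of the 12779 H3K27me3 islands, 175 of the 12543 annotated genes and 609 of the 12602 class u loci. Class u loci are assembled transcripts that lie between annotated genes. On 4 arms the inner border falls at an edge of a gene: AGAP004707 on 2L, AGAP010342 on 3L, AGAP010287 on 3R and AGAP001039 on X. On 2R it does not. A single item crosses a border, the H3K27me3 island from 20008801 to 20010799 of X, and it belongs to neither side.

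The samples came from sugar-fed adult females of the Kisumu strain, 6 to 8 days old. Chromatin from pools of 15 to 20 midguts was immunoprecipitated with an antibody to H3K27ac in 1 library and to H3K27me3 in 1 library, with 1 input library as the background for calling peaks. For RNA, 25 midguts and 50 salivary glands were each pooled into 1 library, and the transcripts of these tissues were merged into 1 set. Peaks of the marks therefore describe single libraries of unseparated midgut cells, whereas genes and class u loci come from the merged set of both tissues. No difference could be tested against replicates, and the intervals cover counting error only. A mark carried by some of the cells and a weaker mark in all of them cannot be told apart. No expression values were used, so the tissue was not checked against its marker genes.

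Pericentromeric heterochromatin is the compact, repeat-rich chromatin beside centromeres. In Drosophila it carries few genes, often with large introns, and is marked mainly by H3K9 methylation, which was not measured here. Acetylation of lysine 27 of histone H3 (H3K27ac) marks active promoters and enhancers, and trimethylation of the same residue (H3K27me3) is deposited by Polycomb complexes over broad domains of silenced genes. A lysine cannot carry both modifications at once.

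Genes and peaks of both marks were 4 to 5 times sparser in the segments than along the rest of the same chromosomes. Class u loci were nearly as dense per Mb of sequence, but sparser per Mb outside annotated genes (65.6 in the segments and 95.0 in the rest). The segments held 14.3 annotated genes per Mb (95% exact Poisson interval 12.3 to 16.6), against 56.7 per Mb in the rest of the arms. H3K27ac peaks numbered 6.21 per Mb (4.90 to 7.78) in the segments and 29.7 per Mb in the rest. H3K27me3 islands numbered 11.7 per Mb (9.86 to 13.8) in the segments and 57.9 per Mb in the rest. The densities of genes, H3K27ac peaks and H3K27me3 islands were each lower in the segment than in the rest on all 5 arms. On every arm the intervals lay apart. Neighbouring features are not independent, so the true uncertainty is wider than these intervals.

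**Figure D1:**
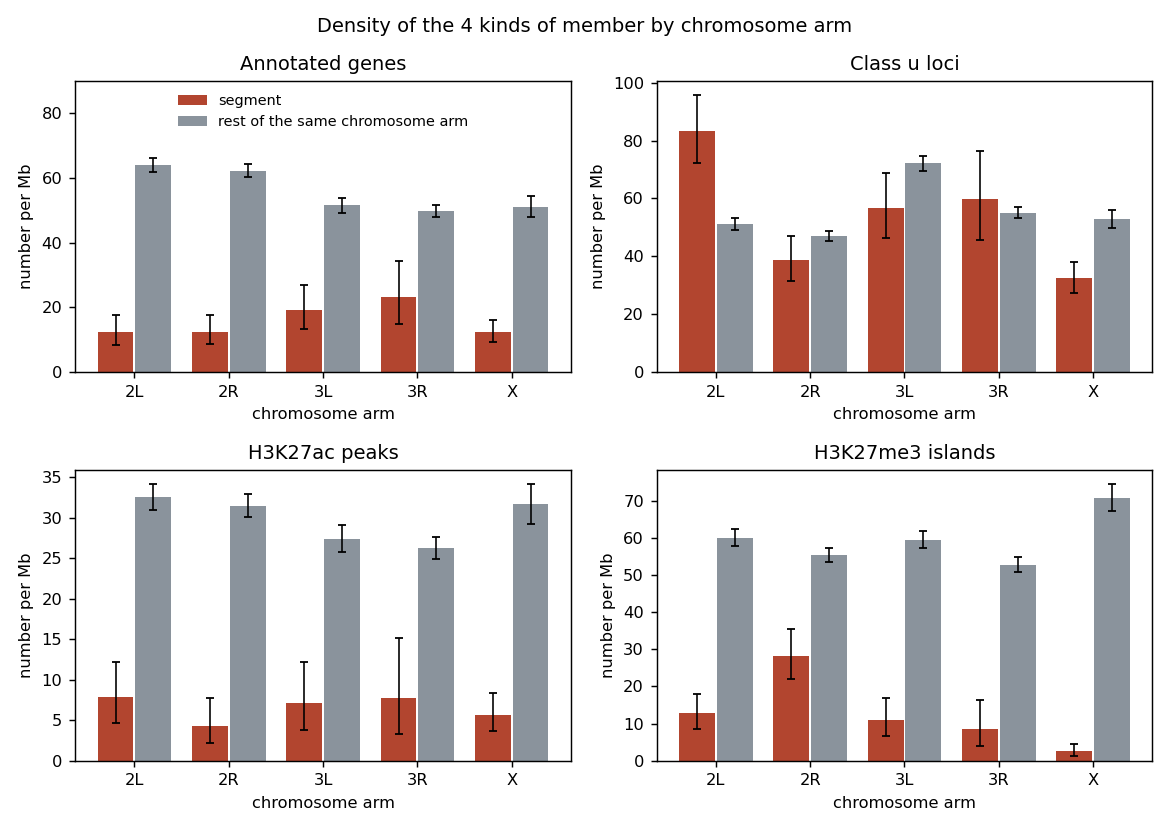
Number of annotated genes, class u loci, H3K27ac peaks and H3K27me3 islands per Mb (y axes) on each chromosome arm (x axis), in the segment (red) and the rest of the arm (grey); error bars are 95% exact Poisson intervals. Genes and peaks of both marks are sparser in every segment, from 2.51 to 28.1 H3K27me3 islands per Mb, whereas class u loci are denser on 2L and 3R and sparser on 2R, 3L and X.

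Per Mb of segment, 2L had 12.3 genes, 2R 12.5, 3L 19.3, 3R 23.1 and X 12.3, against 64.0, 62.3, 51.5, 49.8 and 51.1 per Mb in the rest of the same arms. The 3R segment, the shortest, was the richest in genes. H3K27ac density varied little among the segments, from 4.30 peaks per Mb on 2R to 7.81 on 2L, and their intervals overlapped. H3K27me3 density varied more than 10-fold: the 2R segment had 28.1 islands per Mb, 2L had 12.7, 3L 11, 3R 8.66 and X 2.51. The X segment had the fewest islands per Mb of the 5 segments, and the rest of X had the most of the 5 arms, 70.8 per Mb.

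Measured as covered sequence, H3K27ac lay over 1.11% of the segments and 7.93% of the rest. The segment share ran from 0.834% on 2R to 1.55% on 3L. H3K27me3 lay over 4.97% of the segments and 24.0% of the rest, and here 1 arm decided the value. The 2R segment was covered to 18.6%, the 2L segment to 2.32%, 3L to 2.04%, 3R to 1.14% and X to 0.580%. Without 2R the H3K27me3 share was 1.35% in the segments, against 23.6% in the rest. Without X it was 7.42% in the segments and 22.9% in the rest.

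**Figure D2:**
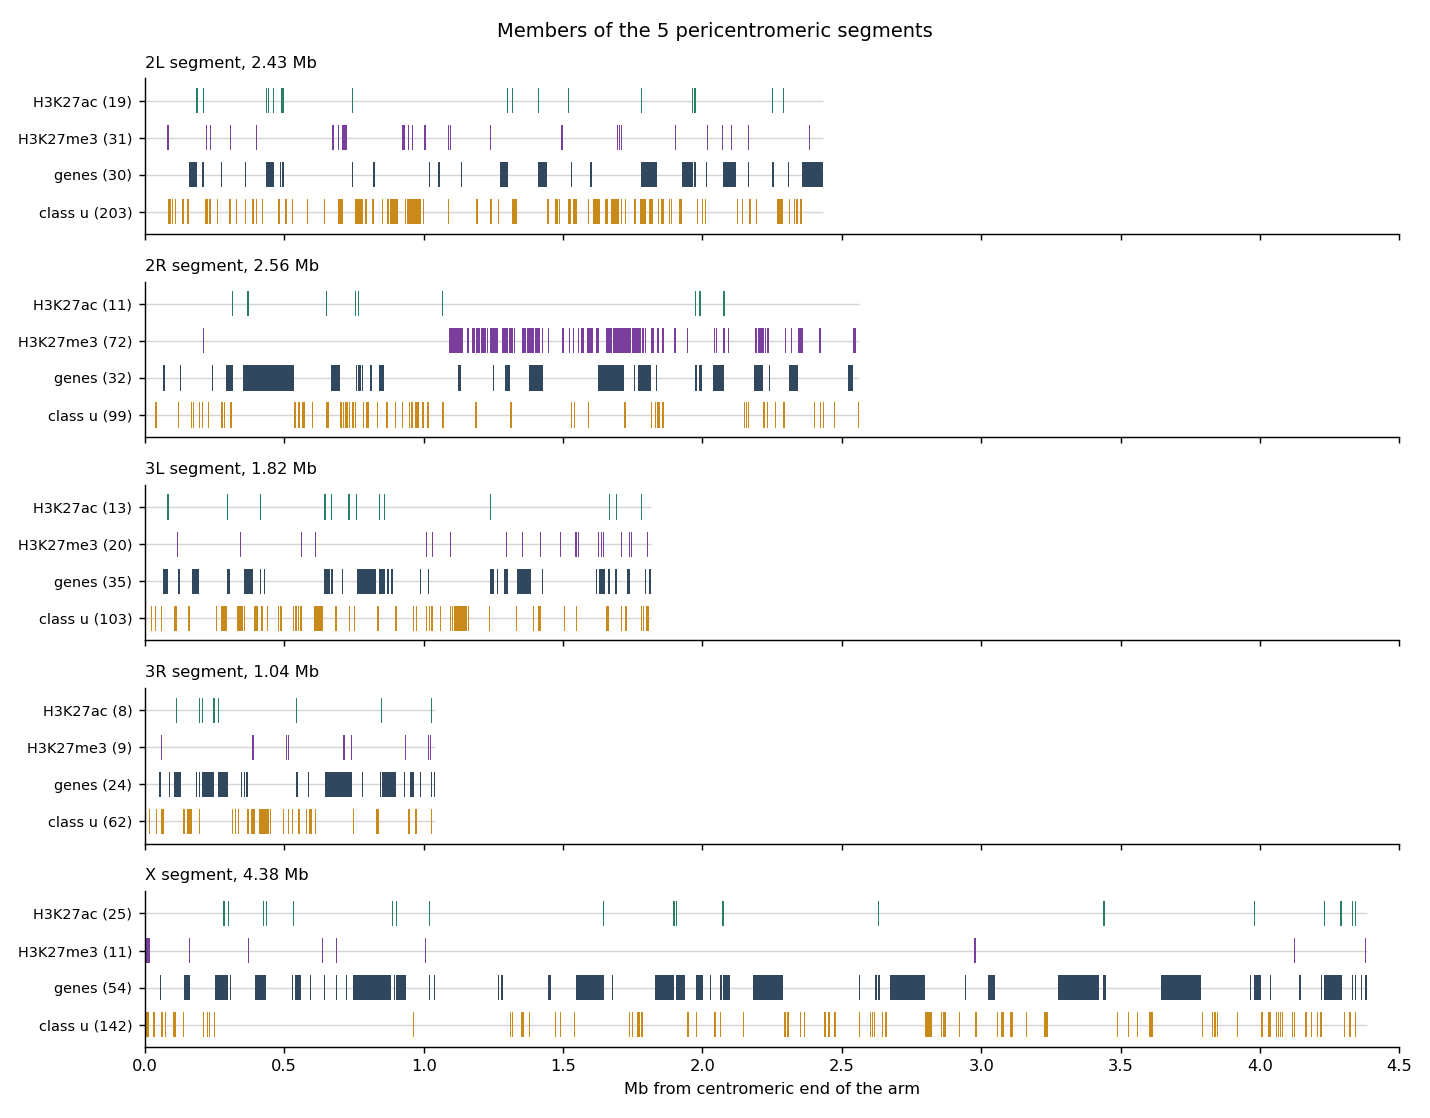
Position of every member in the 5 segments, with the distance from the centromeric end of the arm in Mb (x axis) and a row each for H3K27ac peaks, H3K27me3 islands, annotated genes and class u loci, with the number of members in parentheses; marks are drawn to scale but never narrower than 4 kb. The H3K27me3 islands of 2R crowd between 1.0 and 2.5 Mb, and X is almost empty of them.

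The H3K27me3 of the 2R segment lay mostly in its outer stretch. Of its 72 islands, 69 lay between 1.0 and 2.5 Mb from the centromeric end and 1 lay within 1.0 Mb of it. In successive bins of 0.5 Mb from that end, H3K27me3 covered 0.160%, 0%, 45.8%, 34.4% and 14.2% of the sequence. All 14 islands of 10 kb or longer in the 5 segments were on 2R, and they hold 288186 bp. The longest ran from 60409401 to 60446399 (36999 bp, score 4726) and covered AGAP004664 whole. The island from 59817601 to 59848599 (30999 bp, score 4053) overlapped AGAP004660. AGAP004663 lay whole within the island from 60277001 to 60307199 (30199 bp, score 4108). The island from 59769201 to 59798399 (29199 bp, score 4104) spanned AGAP013157 and the start of AGAP004659. The island from 60241201 to 60265399 (24199 bp, score 3302) lay over AGAP004662.

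Of the 32 genes of the 2R segment, 11 carried H3K27me3 within 200 bp of their body, and 7 of them had at least 50% of the body covered. AGAP004660, with 6 exons over 94900 bp, had 63295 bp under H3K27me3, 66.7% of its length and the most of any gene in the segments. AGAP004661 was covered to 76.3%, AGAP004662 to 88.9%, AGAP004648 to 61.3% and AGAP004659 to 39.9%. AGAP004659 and AGAP004660 are named as Antennapedia homeotic genes in the study, of the family that sets segment identity along the body and is held silent by Polycomb proteins in Drosophila. None of these 5 genes touched an H3K27ac peak. AGAP013157, AGAP004663 (a model of 84 bp) and AGAP004664 were covered to 100%. AGAP004646 was covered to 23.8%, and AGAP004645 was reached only in its 200 bp flank, with 0 bp of its body covered. AGAP004649 was the only gene of the 175 with both marks. An H3K27ac peak from 59466719 to 59470108 at its start covered 7.82% of its 41695 bp, and 3 H3K27me3 islands covered 13.4%. The island from 59467201 to 59469799 (2599 bp, score 246) lay wholly inside that H3K27ac peak, so both marks were called on the same bases there. The other islands were farther into the gene. The background of both marks was 3.49% of the 12543 genes of the arms.

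A short cluster of H3K27ac genes sat within the same stretch of 2R. AGAP004653 and AGAP004655 were covered by H3K27ac to 100%, AGAP004657 to 70.5% and AGAP004654 to 33.0%, all between 59553072 and 59571963, and no H3K27me3 was called on them. AGAP004654 was covered only at the end away from its start, by the peak that covers AGAP004655. AGAP004656, which lies between AGAP004655 and AGAP004657, carried neither mark. The peak at AGAP004654 and AGAP004655, from 59556052 to 59558798, had a score of 1481, the second largest H3K27ac score of the segments. From AGAP004665 at 60686982 to AGAP004676, the gene nearest the centromeric end, 12 genes followed with no H3K27me3 and 4 with H3K27ac. They include AGAP013143, the longest gene of the segments at 163654 bp, with a single peak at its start over 0.664% of its body.

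The X segment was the poorest in H3K27me3. Islands covered 0.580% of the 4.38 Mb segment and 34.6% of the rest of X, and only 2 of the 54 genes of the segment carried H3K27me3, AGAP001039 at the inner border (54.6% of its body, in part under the island across the border) and AGAP001094 (4.39%). The longest stretch free of H3K27me3 ran from 21419000 to 23385200 and was 1966201 bp long, against a longest of 195401 bp in the rest of X. The change was abrupt: H3K27me3 covered 0.603% of the last Mb inside the X segment and 47.8% of the first Mb outside it. The step was smaller on 2L, 3L and 3R, where the last Mb inside was covered to 1.30%, 2.94% and 1.18%, and the first Mb outside to 8.08%, 8.34% and 9.62%. On 2R the order was inverted, at 24.2% inside and 5.38% outside.

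One X island stood apart. It ran from 24383801 to 24390599, ended 0.00251 Mb from the end of the arm, and had a score of 3344 over 6799 bp. Its score per kb was 492, which ranked 3 among the 12779 islands of the arms, whose median was 103. It touched 7 class u loci and no annotated gene, among them XLOC_025802 (3289 bp) and XLOC_026862 (3291 bp), which cover almost the same bases on opposite strands and lay wholly under it. The 14 long 2R islands had 82.9 to 141 per kb, on both sides of that median. Whether the sequence at this end of the X assembly is a collapsed repeat was not examined, and in such a repeat a high score per kb would not measure the mark at a single locus.

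**Figure D3:**
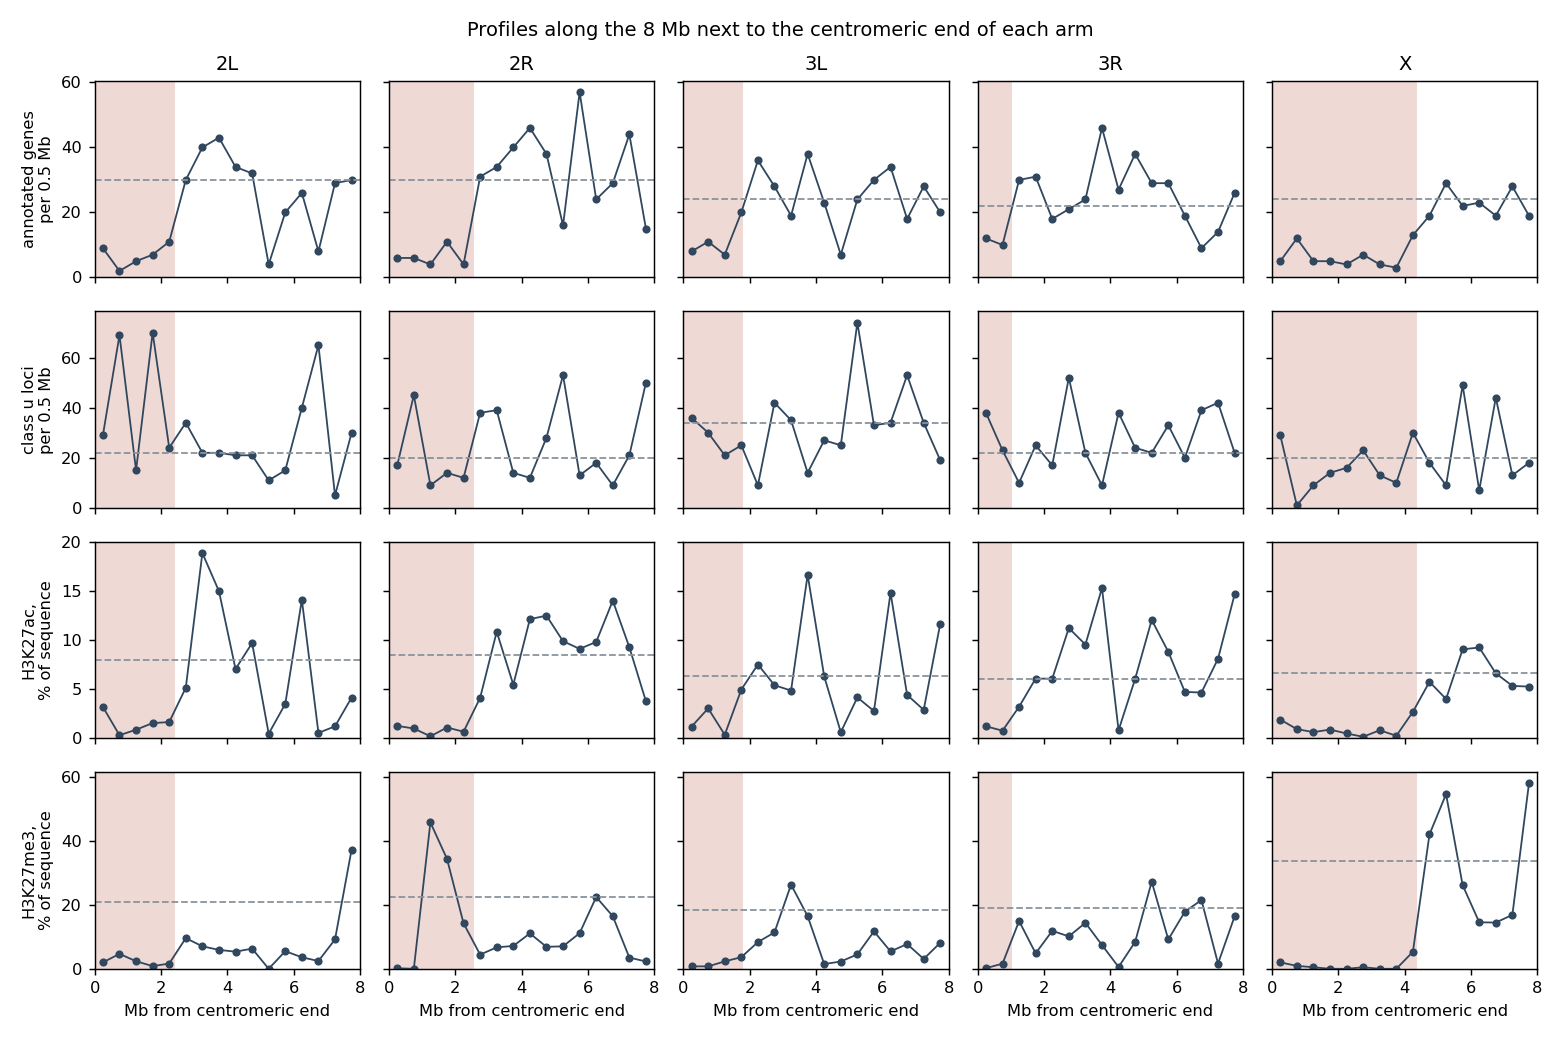
Annotated genes and class u loci per 0.5 Mb, and the percentage of sequence under H3K27ac and H3K27me3, in bins of 0.5 Mb from the centromeric end of each arm (x axis, Mb), with the segment shaded and the median of the bins outside the segment as a dashed line. Gene numbers stay at 2 to 12 per bin inside the segments; H3K27me3 reaches 45.8% of a bin inside the 2R segment and stays at 0 to 4.68% in the other segments.

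The bins place these values in the variation along the arms. The 22 bins of 0.5 Mb wholly inside the segments held 2 to 12 annotated genes (median 6), against a median of 26 in the 431 bins of the rest, and all 22 were below the 10th percentile of the rest, 13 genes. Only 11 of the 431 bins of the rest held 6 genes or fewer. All 22 bins were below the median of the rest in H3K27ac cover (median 0.888% in the segments and 7.33% in the rest). In the 17 bins outside 2R, H3K27me3 cover was at most 4.68%, below the 10th percentile of the rest of the same arms, 5.96%. Low values of this kind occurred elsewhere too, since 6 of 314 bins in the rest of those arms were at or below the median of the segment bins. Gene numbers also stepped up at the border: the last Mb inside held 14, 16, 21, 24 and 14 genes on 2L, 2R, 3L, 3R and X, and the first Mb outside held 69, 65, 65, 60 and 38.

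Long empty stretches were the other side of these densities. Stretches of 100 kb or more without a peak of either mark made up 56.2% of the segments and 7.38% of the rest. They took 32.4% of the 2L segment, 43.3% of 2R, 33.9% of 3L, 49.5% of 3R and 87.8% of X. The longest in the segments, on X from 22749818 to 23371973, was 622156 bp. Longer ones occurred outside, up to 2155001 bp in the rest of 3R. Stretches of 100 kb or more with no annotated gene made up 38.7% of the segments and 14.6% of the rest, with 3R as the exception (17.0% in the segment and 20.9% in the rest). How much of the segments short reads can reach was not examined, and the authors' mapping set aside reads from repeats, so missing peaks and unreachable sequence cannot be told apart.

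Genes of the segments were more often very long, through their introns and not their exons. The median span was 3307 bp (95% interval of the median 2405 to 5054) in the segments and 2353 bp in the rest, and the upper quartiles were 20216 bp in the segments and 6525 bp in the rest. Without 2R the interval of the segment median was 2344 to 5054, which includes the 2363 bp of the rest. Genes of 20 kb or more made up 25.1% (44 of 175, Wilson interval 19.3 to 32.1) in the segments and 8.82% in the rest, and they were the larger share on all 5 arms. Exonic length did not follow: its median was 1601 bp in the segments and 1617 bp in the rest, with 3 exons in each. Among genes with introns, the median of the longest intron was 1482 bp (304 to 5011) in the segments and 327 bp in the rest. An intron of 10 kb or more was present in 26.3% of segment genes, against 9.0% in the rest. On X the median span itself was not longer, at 3263 bp in the segment and 3678 bp in the rest, although 31.5% of its segment genes reached 20 kb, against 8.12% in the rest of X.

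**Figure D4:**
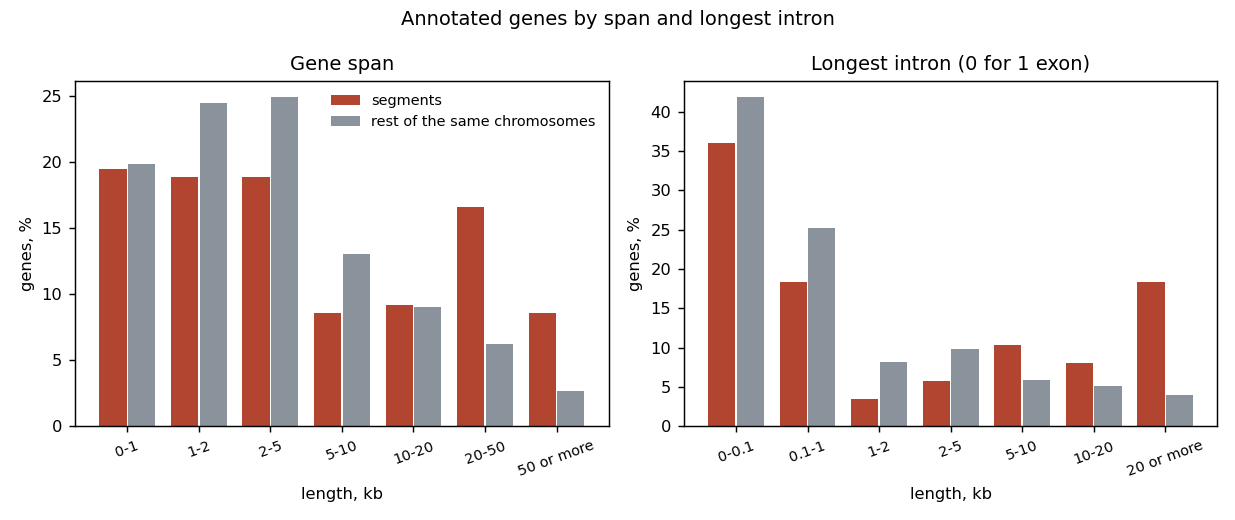
Share of annotated genes (y axes, %) by span and by longest intron (x axes, length in kb; genes with 1 exon count as 0), in the segments (red) and the rest of the same chromosomes (grey). Genes of 50 kb or more make up 8.57% in the segments and 2.63% in the rest, and introns of 20 kb or more are found in 18.3% of segment genes and 3.91% of the rest.

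The 5 longest genes of the segments were AGAP013143 on 2R and 4 genes of X. AGAP001052 spans 147307 bp with 11 exons, AGAP001048 143808 bp with 7 exons, AGAP013021 125249 bp with 8 exons and AGAP001084 122830 bp with 6 exons. A single intron takes 94209 bp of AGAP001084. These 4 X genes carried neither mark. Kdr (AGAP004707), the voltage-gated sodium channel that pyrethroid insecticides act on, closes the 2L segment at 2358158 to 2431617. Its transcripts merge into 32 exons, the most of any segment gene, over 73460 bp. It had no H3K27ac, and an H3K27me3 island over 1199 bp, 1.63% of its body.

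The share of genes with an H3K27ac peak differed less between the segments and the rest than the density of the peaks did. H3K27ac lay within 200 bp of 59 of the 175 segment genes, 33.7% (27.1 to 41.0), against 38.5% in the rest and 38.4% over all genes of the arms. The interval includes the value of the rest, so a difference was not detectable at this number of genes with all peaks. With peaks at or above the median score of the list the share was 17.1% (12.3 to 23.4) in the segments and 24.3% in the rest, which lies above the interval. By arm the counts were 14 of 30 genes on 2L, 9 of 32 on 2R, 13 of 35 on 3L, 7 of 24 on 3R and 16 of 54 on X, and the share was higher in the segment on 2L and 3L and lower on the other arms. Per 100 genes there were 43.4 H3K27ac peaks in the segments and 52.4 in the rest. Of the segment peaks, 65 of 76 (85.5%, 75.9 to 91.7) lay on an annotated gene, against 78.1% in the rest, a value inside the interval. A promoter, taken as 200 bp on each side of a transcript start, was touched by 67.1% (55.9 to 76.6) of the peaks in the segments and 52.2% in the rest. The peaks were somewhat shorter, with a median of 1616 bp in the segments (1407 to 1790) and 2070 bp in the rest. Their median score was 187 (137 to 297) in the segments and 246 in the rest, a value inside the interval. It was higher in the segment on 2R (297, against 253) and 3L (400, against 238) and lower on the other arms.

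The segment peaks, of at most 4440 bp each, cover a smaller share of a longer gene, so body shares are given by length. In the 30 marked segment genes under 10 kb H3K27ac covered a median of 62.1% of the body (47.8 to 70.6), against 49.8% in the rest, which lies inside the interval. AGAP004684 (2L), AGAP004653 and AGAP004655 (2R), AGAP010337 (3L) and AGAP010298 (3R) were covered whole. In the 29 marked segment genes of 10 kb or more the median was 6.70% (4.23 to 10.2), against 19.8% in the rest. This class has no upper limit, and its genes ran longer in the segments. Marked or not, 16 segment genes spanned 10 to 20 kb, 29 spanned 20 to 50 kb and 15 spanned more. In the rest these numbers were 1115, 766 and 325. Length is therefore not matched, and whether the gap goes beyond it was not tested. The highest was 34.0%, in AGAP001050 on X. By number of bases the leading genes were AGAP001043 on X (7447 bp, 11.8% of its 63207 bp), AGAP001093 on X (7088 bp, 15%), AGAP004682 on 2L (4902 bp, 17.4%), AGAP001050 (4012 bp) and AGAP010325 on 3L (3820 bp, 74.6%). Among genes of 10 kb or more, 48.3% in the segments and 51.3% in the rest carried H3K27ac. Among shorter genes these shares were 26.1% (18.9 to 34.8) in the segments and 35.7% in the rest, which lies above the interval.

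The highest H3K27ac score of the segments was 1629, at 20099398 to 20103045 over the start of AGAP001043. Next after the 2R peak at AGAP004654 and AGAP004655 came 667931 to 670729 on 3L (score 1409, 2799 bp), mostly between AGAP010321 and AGAP010322. It reached 208 bp into AGAP010321 and 103 bp into AGAP010322, at the ends away from their starts, and touched no promoter. The peak from 24110315 to 24114416 on X (score 1334) lay inside AGAP001093, with its midpoint 17567 bp from the nearest gene start. The peak from 1411056 to 1412845 on 2L (score 977) was at AGAP004692. The longest peak, 4440 bp from 839256 to 843695 on 3L, covered the start of AGAP010325. Among the next longest, 59466719 to 59470108 on 2R (3390 bp) was at AGAP004649 and 1962892 to 1966100 on 2L (3209 bp) at AGAP004696. Only 4 of the 76 peaks lay outside every assembled locus, 5.26% in the segments and 5.34% in the rest.

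The H3K27ac peak nearest the centromeric end lay 0.0806 Mb from it on 3L and 0.113 Mb on 3R. This distance was 0.185 Mb on 2L, 0.279 Mb on X and 0.312 Mb on 2R. The genes nearest the centromeric ends of 2L and 3L are AGAP004677, with its nearer edge at 0.157 Mb, and AGAP010310, at 0.0665 Mb. Both had H3K27ac at their start, which is the edge farther from the centromeric end. It covered 7.39% of the body of AGAP004677 and 16.0% of that of AGAP010310. The nearest genes on 2R (AGAP004676, 0.0663 Mb), 3R (AGAP027986, 0.0522 Mb) and X (AGAP013609, 0.0527 Mb) carried neither mark. The nearest H3K27ac peaks of these arms were on genes farther in, AGAP004672 on 2R, AGAP010307 on 3R and AGAP001093 on X.

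H3K27me3, by contrast, was carried by fewer genes of the segments. It lay within 200 bp of 22 of the 175 genes, 12.6% (8.45 to 18.3), against 30.2% in the rest and 30% over all genes of the arms. Without 2R, where 11 of 32 genes (34.4%) were marked, against 29.3% in the rest of 2R, the share was 11 of 143 genes, 7.69% (4.35 to 13.2), against 30.6%. It was 3 of 30 genes on 2L, 4 of 35 on 3L, 2 of 24 on 3R and 2 of 54 on X. In those 11 genes it covered between 1.63% and 54.6% of the body, and only AGAP001039 reached 50%. The share was lower in the segments for genes of 10 kb or more (26.7% in the segments and 51.1% in the rest) as well as for shorter genes (5.22% in the segments and 25.7% in the rest). Counted per 100 genes, on genes or not, there were 81.7 islands in the segments and 102 in the rest. This number was higher in the segment on 2L (103, against 93.8) and 2R (225, against 88.7) and lower on the other arms. Without 2R it was 49.7, against 108. In all, 54.3% of segment genes carried neither mark, against 34.8% in the rest.

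**Figure D5:**
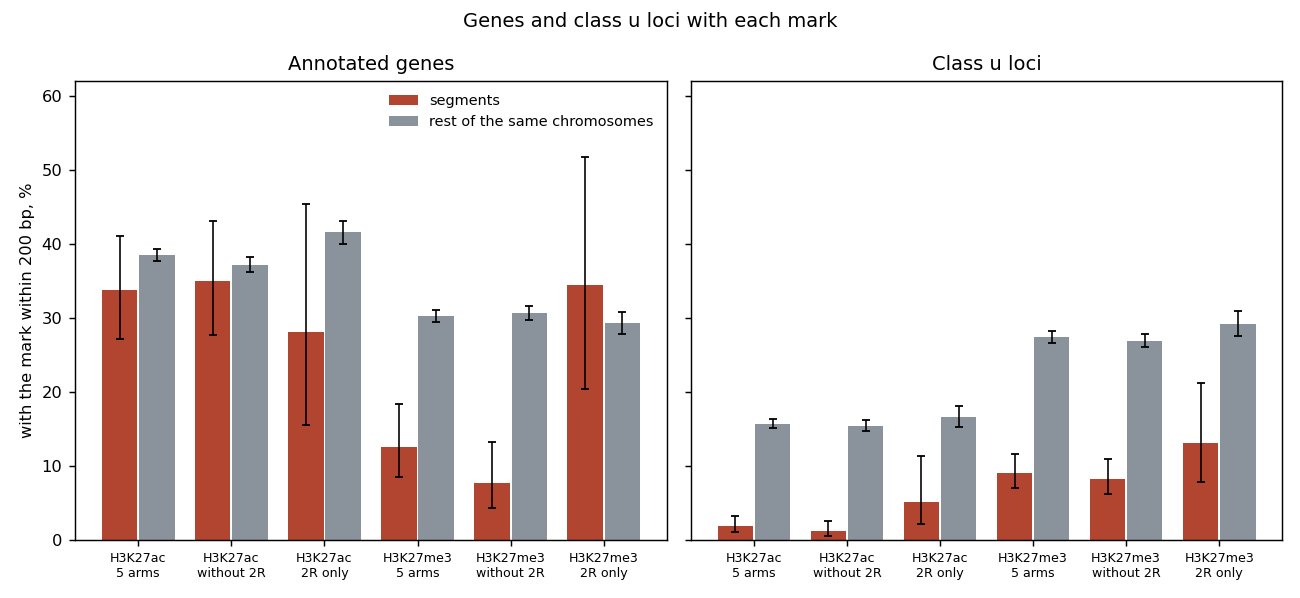
Share of annotated genes and of class u loci with H3K27ac or H3K27me3 within 200 bp (y axes, %), in the segments (red) and the rest of the same chromosomes (grey), over the 5 arms, without 2R and for 2R only; error bars are 95% Wilson intervals. Genes with H3K27ac differ least over the 5 arms (33.7% in the segments and 38.5% in the rest), whereas H3K27me3 is on 12.6% of genes in the segments and 30.2% in the rest, and on 34.4% and 29.3% for 2R only, with overlapping intervals.

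The H3K27me3 islands that the segments do hold were short outside 2R and often away from genes. The median island was 1999 bp (1599 to 2399) in the segments and 2399 bp in the rest, which is the upper bound of the interval. Without 2R it was 1399 bp (1199 to 1799) in the segments and 2399 bp in the rest. On 2R it was 2899 bp in the segment and 2599 bp in the rest. Islands lay on an annotated gene in 43 of 143 cases (30.1%) in the segments, against 45.6% in the rest. They touched a promoter in 7.69% of cases in the segments and 19.0% in the rest. Islands outside every assembled locus made up 44.8% (36.8 to 52.9) in the segments and 38.0% in the rest, a value inside the interval, and those on a class u locus alone 20.3% in the segments and 12.2% in the rest. Annotated genes cover 24.0% of the segments and 42.2% of the rest, and assembled transcripts of any class 36.2% and 57.0%. Whether the islands lay away from genes beyond this difference in cover was not tested. Bases under both marks came to 2599 of the 135877 bp under H3K27ac in the segments, all of them at the start of AGAP004649, and to 125112 of 17300795 bp in the rest.

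Class u loci kept nearly the density of the rest while genes and marks thinned out, so that the segments held 348 class u loci per 100 annotated genes and the rest 97.0. There were 49.8 per Mb (45.9 to 53.9) in the segments and 55.0 per Mb in the rest, and the order depended on the arm. They were denser in the segment on 2L (83.5 per Mb, against 51.1 in the rest) and 3R (59.7, against 55.1) and sparser on 2R (38.7, against 46.9), 3L (56.7, against 72.2) and X (32.4, against 52.8). Without X the order turned round, with 59.5 per Mb in the segments and 55.2 in the rest. Class u loci are intergenic by definition and genes cover 24.0% of the segments and 42.2% of the rest, so the density was also taken per Mb outside annotated genes. It was 65.6 in the segments and 95.0 in the rest, and lower or level on every arm, from 45.7 against 87.3 on X to 99.6 against 100 on 2L. The bins of 2L show how uneven they were, with 29, 69, 15 and 70 loci in successive bins of 0.5 Mb from the centromeric end.

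Few of these loci carried either mark. H3K27ac lay within 200 bp of 11 of the 609 loci, 1.81% (1.01 to 3.21), against 15.7% in the rest and 15% over all class u loci of the arms, and it was on none of the 142 loci of X. H3K27me3 lay on 55, 9.03% (7.00 to 11.6), against 27.4% in the rest and 26.6% over all. Both shares were lower in the segment on all 5 arms. Segment loci were farther from genes, with 66.5% at 10 kb or more from an annotated gene, against 42.1% in the rest. Among loci at that distance H3K27ac was on 1.73% in the segments and 9.33% in the rest, and H3K27me3 on 10.4% in the segments and 31.0% in the rest. In all, 89.2% of segment loci carried neither mark, against 57.3% in the rest.

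The class u loci with the most bases under H3K27ac were XLOC_002796 on 2L (1964 bp, 15.9% of 12364 bp, with 3 exons), XLOC_012062 on 2R (1213 bp, 65.9%) and XLOC_012076 on 2R (954 bp, 55.5%). Under H3K27me3 they were XLOC_026862 and XLOC_025802, in the island at the end of X, and XLOC_012132 on 3L (1875 bp, 96.5%). Spliced loci numbered 33, which is 2.70 per Mb (1.86 to 3.79) in the segments and 1.92 per Mb in the rest, intervals that overlap. The order depended on the arm. On 2L there were 15, or 6.17 per Mb (3.45 to 10.2), against 1.73 (1.37 to 2.15) in the rest. They were also denser in the segment on 3R (4.81, against 1.53) and X (1.83, against 1.60). They were sparser on 2R (0.781, against 1.81) and 3L (1.65, against 2.94). XLOC_000084 on 2L, from 1675189 to 1692945, had the most exons, 5, and carried neither mark. The loci were somewhat longer in the segments, with a median exonic length of 909 bp (862 to 958), against 755 bp. The merged set does not say which of the 2 tissues a locus was assembled from.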

How the data were processed

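ChIP reads were mapped to AgamP4 by the authors with Bowtie 1.0.0, setting aside reads from repeats, and peaks were called against the input. The deposited H3K27ac list holds a MACS score per peak (version 1.4.2 in the study, 1.4 in the submitters' processing notes). The deposited H3K27me3 list holds a SICER score per island (windows of 200 bp, gaps of 600 bp), so island lengths move in steps of 200 bp. Scores were used only within their own list. RNA reads were assembled with TopHat2 2.0.10 and Cufflinks 2.1.1 into a deposited transcript set of both tissues, whose positions and class codes were used here and no abundance. Read depths were not used, so the precision of single peaks is not given.

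Genes were built from class "=" transcripts, from class "j" where there were none and then from class "o" (161, 10 and 4 of the 175 segment genes). The 37 mitochondrial and 559 unplaced genes were left out. Positions are 1-based. The ends of 2R, 3R and X are those of their segments, and the lengths of 2L and 3L are those the study gives. A mark was on a gene or locus when a peak came within 200 bp of it. Densities have exact Poisson intervals, shares Wilson intervals and medians order-statistic intervals, all at 95% and for counting error only; the code was tested on simulated data. No test was run, with 1 library per mark. Python 3.11.15, numpy 2.4.6, scipy 1.17.1 and matplotlib 3.10.9 were used.

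Named genes were Kdr from the study's candidate genes, the 5 with the most bases under each mark, those with both marks, the gene nearest each centromeric end, the 5 longest, and those at the 5 highest-scoring and 5 longest peaks of each mark. The 3 class u loci with the most bases under each mark and the locus with the most exons were added. Others, such as the remaining marked genes of 2R and X and those covered whole, were named after their values had been seen. Members and lists were chosen with earlier results of these data known. Gene roles came from the study, since 0 identifiers matched the RefSeq table. Alternatives were other rules of membership, stricter or merged peaks, smaller segments, an adjoining reference, other gene models and loci, and the removal of X. The removal of 2R and the merging of class u loci across strands were added after seeing the data.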

Additional observations from a re-analysis of the deposited data

How the results depend on the processing

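Of the 83 alternatives tried over 14 results, 57 stayed within the counting interval of the reported value (for cover, within 1.5 times of it), 22 moved outside it with the same order of segments and rest, and 4 turned the order round. Those 57 include membership by midpoint or by at least 1 bp, which could hardly move a value, since a single island crosses a border. The turned values, as segments over rest, were the median H3K27me3 island length with peaks at or above the median score of the list (1.23, against 0.833), and the density of class u loci, reported at 0.906, which was 1.00 against the adjoining stretch of equal length, 1.08 without the X and 1.41 with more than 1 exon. In the centromeric part of the segments, the inner 50% of each, this ratio was 0.994. The H3K27me3 density ratio, 0.202, was 0.168 with stricter peaks, 0.130 in the centromeric part, 0.292 against the adjoining stretch, 0.297 without the X and 0.125 without 2R. The H3K27me3 cover ratio, 0.207, was 0.137 in the centromeric part, 0.324 without the X and 0.0572 without 2R, and the island length ratio was 0.583 without 2R. The H3K27ac length ratio, 0.781, was 0.608 with stricter peaks and 0.654 with peaks within 1000 bp merged. Its interval included 1 in the centromeric part (0.685 to 1.03) and without the X (0.748 to 1.04). The gene span ratio, 1.41, had an interval that included 1 with class "=" models only (0.985 to 2.39) and without 2R (0.992 to 2.14). The share of segment genes with H3K27ac, 33.7%, was 10.9% when 50% of the body had to be covered (16.0% in the rest) and 17.1% with stricter peaks (24.3% in the rest). That with H3K27me3, 12.6%, was 4.57% with 50% of the body covered (20.9% in the rest) and 6.86% at promoters only (22.5% in the rest). It was 6.86% with stricter peaks (22.5% in the rest) and 7.69% without 2R (30.6% in the rest). The share of islands on a gene, 30.1%, was 41.7% with stricter peaks (52.3% in the rest) and 18.3% without 2R (44.7% in the rest). The share outside every locus, 44.8%, was 57.3% when 50% of an island had to be shared (48.8% in the rest). With stricter peaks it was 33.3% (31.2% in the rest). The removal of 2R was chosen after seeing the data. Causes of these shifts were not tested beyond what each alternative leaves out. No paired analysis was possible because each group has 1 library. Sequence composition of the segments was not analysed here.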
